A study of Mus musculus with 4 samples.

Results

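The genes described here encode structural proteins of the sperm tail. They were 10 genes chosen by name, namely Akap3, Akap4, Odf1, Odf2, Cabyr, Ropn1, Ropn1l, Fsip1, Fsip2 and Smcp, of which 9 had values among the 23420 gene symbols measured, and the expression of Fsip2 was not analysed here. RNA-seq was done on pachytene spermatocytes sorted by FACS on a DNA dye from wild-type C57BL/6 males of 23 weeks of age and then cultured for 24 h with DMSO (Ctrl) or with 10 μM AZ20. AZ20 blocks ATR, the kinase that signals DNA damage and keeps the sex chromosomes silent in these cells. Each condition had 2 libraries. In each experiment the cells of a mouse were divided between the conditions. Libraries of the same number were therefore taken as a pair, Ctrl 1 with AZ20 1 and Ctrl 2 with AZ20 2. The labels do not state which libraries share a mouse, so this pairing is an assumption. The question was which genes change when ATR is inhibited after meiotic sex chromosome inactivation (MSCI), the silencing of X- and Y-linked genes at the pachytene stage, has been set up.

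The sperm tail has an axoneme that is wrapped along its length by outer dense fibers, by a mitochondrial sheath in the midpiece and by a fibrous sheath in the principal piece. AKAP3 and AKAP4 are A-kinase anchoring proteins and the main building blocks of the fibrous sheath, where they hold protein kinase A (PKA). CABYR, ROPN1 and ROPN1L carry a docking domain like that of the PKA regulatory subunit and sit in the sheath, and FSIP1 and FSIP2 were named for binding to AKAP4. ODF1 and ODF2 belong to the outer dense fibers, and ODF2 is also a centrosomal protein outside the germline. SMCP is a cysteine-rich protein of the mitochondrial sheath, so it belongs to neither of the structures that give the group its name. These structures are built in spermatids, after meiosis. Akap4 is the X-linked member, from 7067515 to 7078609 on chromosome X of GRCm38, whereas its relative Akap3 lies on chromosome 6, from 126853098 to 126874308.

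Because Akap4 and Akap3 are the pair compared most closely here, the sequence before their transcription starts is shown. The 250 bases before each RefSeq start (GRCm38.p6) are on the plus strand, at chr6:126852848-126853097 for Akap3 and chrX:7067265-7067514 for the first of the Akap4 starts. Capitals mark the longest run of bases that both windows share.
Akap3: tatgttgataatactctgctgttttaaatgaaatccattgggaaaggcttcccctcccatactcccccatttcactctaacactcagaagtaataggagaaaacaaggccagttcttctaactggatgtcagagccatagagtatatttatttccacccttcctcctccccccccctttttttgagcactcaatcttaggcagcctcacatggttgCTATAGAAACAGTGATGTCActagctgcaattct
Akap4: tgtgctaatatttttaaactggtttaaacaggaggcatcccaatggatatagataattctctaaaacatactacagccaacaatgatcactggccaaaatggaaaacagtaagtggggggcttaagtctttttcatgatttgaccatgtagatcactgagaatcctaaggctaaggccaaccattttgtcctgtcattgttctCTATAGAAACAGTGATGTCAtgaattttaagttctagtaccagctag
The shared run is 20 bases long and starts 34 bases before the Akap3 start and 47 bases before the Akap4 start. The run was picked from these windows, so its matches in them were fixed in advance. It was found in 2 of 32851 RefSeq windows of this length, searched on both strands, namely the Akap3 and Akap4 windows. It ends in TGATGTCA, which 2.93% of the windows held. The full cAMP response element, TGACGTCA, was searched on both strands as well, since it is a known element of spermatid promoters. It was in 1.55% of all windows and in 0 of the 11 windows of the 7 listed genes with an entry, Fsip2 among them. The half-site TGACG was in 17.8% of all windows. Of the overlapping Odf2 windows, the first and second held it, at the same sites, and the others did not. The Fsip2 window held it as well. The letters GTTGCC, part of the X-box bound by RFX factors, were in 10.4% of all windows and lay 20 bases before the start of Ropn1l. Odf1, Fsip1 and Cabyr had no window. A match describes letters and not binding.

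The deposited values were TPM, reads scaled to gene length and then to a common total, so levels can be compared between genes. Whole reads were recovered from the steps between TPM values. Gene reads numbered 14244354 and 16128846 for Ctrl, and 20552879 and 18864345 for AZ20. Of the 10316 genes tested, those with a mean above 1 TPM in either condition, 2.33% were called (240 genes), with 235 higher (2.28%) and 5 lower (0.0485%), where a call needs a change of at least 2-fold in log2(TPM + 1) and an adjusted p under 0.05 in limma. Spermatocyte markers summed to 5005 to 6164 TPM. Of 7 Sertoli and 5 Leydig cell markers, 3 and 4 were at 0 in every library, and each of these lists summed to at most 2.31 TPM. Macrophage and peritubular myoid markers summed to at most 1.28 and 4.44 TPM. The 6 spermatogonium markers summed to 0.384 and 0.376 TPM in Ctrl and to 1.5 and 1.23 TPM in AZ20, a sum higher in both pairs. Gfra1 was the most abundant of them. Singly 3 of the 6 were higher in both pairs, where 36.1% of all genes tested were. Kit was lower with AZ20 in the first pair, and 2 markers were at 0 in every library. The part of these markers in the results was not tested. Spermatid markers were present in every library and differed between libraries, and their values stand beside the results that they touch.

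The members are described in 2 parts by mean level, although the ranges of Fsip1 and Smcp, on either side of the divide, overlapped. Ropn1l, Odf2 and Fsip1 were abundant in cultured pachytene spermatocytes and made up 92.7% to 98.2% of the summed TPM of the 9 genes, with Ropn1l alone at 78.3% to 84.6%. Ropn1l was at 1360.1 and 1599.8 TPM in Ctrl and at 1618 and 1247 TPM in AZ20, and it ranked 109th of all genes by its mean. Odf2 was at 221 and 179.6 TPM in Ctrl and at 193 and 196 TPM in AZ20. Fsip1 was at 66.7 and 77.8 TPM in Ctrl and at 73.2 and 59.3 TPM in AZ20. In each of these genes the groups overlapped, and no library stood apart from the rest. On GRCm38 Ropn1l lies on the minus strand of chromosome 15 (31441210 to 31453689), Odf2 on the plus strand of chromosome 2 (29889014 to 29931746) and Fsip1 on the minus strand of the same chromosome (118130261 to 118256987).

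The other 6 genes were lower by mean level, and their libraries differed more. Smcp was at 37.8 and 13.8 TPM in Ctrl and at 69.9 and 22.97 TPM in AZ20. Ropn1 was at 29.9 and 8.83 TPM in Ctrl and at 29.3 and 14.4 TPM in AZ20. Cabyr was at 9.51 and 3.55 TPM in Ctrl and at 21.9 and 9.54 TPM in AZ20. In all these genes the first library of each condition was above the second, and AZ20 1 was the highest or close to it. Odf1 was at 3.95 and 4.71 TPM in Ctrl and at 11.5 and 5.38 TPM in AZ20. Akap4 was at 3.58 and 2.12 TPM in Ctrl and at 12.4 and 5.17 TPM in AZ20. Akap3 was at 5.44 and 1.84 TPM in Ctrl and at 2.97 and 0.628 TPM in AZ20. The AZ20 libraries were above both Ctrl libraries for Akap4, Odf1 and Cabyr, the last by a narrow margin, whereas for Akap3 the groups overlapped with AZ20 2 lowest. These values rest on 26 to 903 reads per library, with the 26 in Akap3. By mean level the order was Ropn1l, Odf2, Fsip1, Smcp, Ropn1, Cabyr, Odf1, Akap4 and Akap3, and from Fsip1 downward each gene overlapped the next in its range over the 4 libraries.

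**Figure D1:**
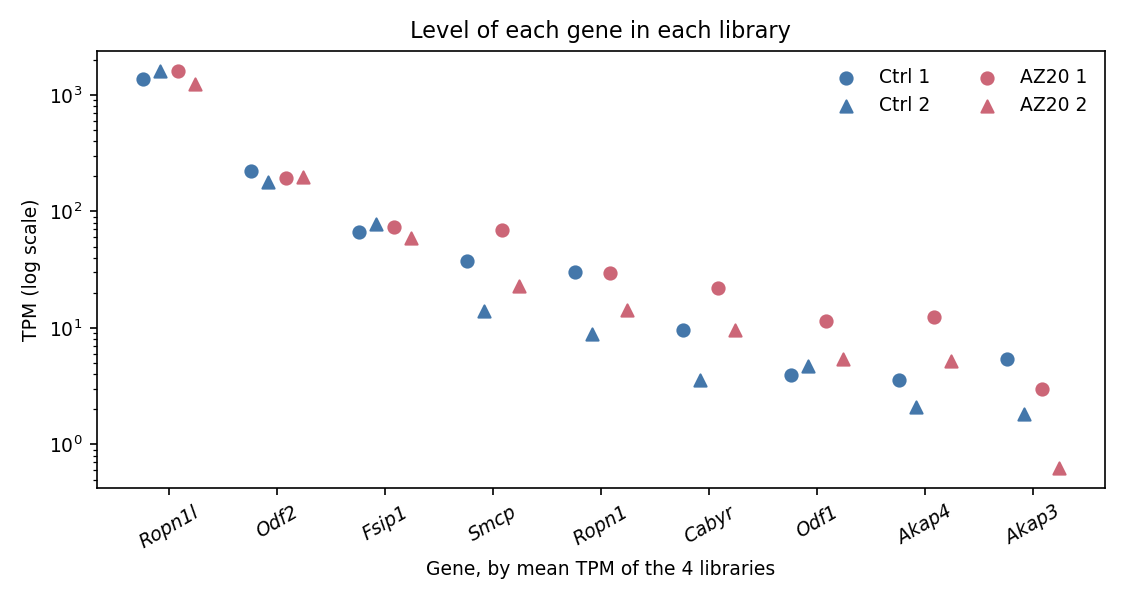
TPM of the 9 genes (log scale) in each of the 4 libraries, with Ctrl in blue, AZ20 in red, circles for replicate 1 and triangles for replicate 2. Ropn1l lies between 1247 and 1618 TPM in every library, whereas the libraries of Smcp, Cabyr and Akap4 are spread over several-fold.

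Relatives within the group differed widely in level. Ropn1l exceeded its relative Ropn1 by 45.4-fold and 181-fold under Ctrl and by 55.1-fold and 86.9-fold under AZ20. Odf2 exceeded Odf1 by 55.9-fold and 38.2-fold in Ctrl and by 16.9-fold and 36.5-fold in AZ20, although these 2 proteins share a structure and not a sequence family. Exons of Odf2 overlap the small RNA gene Gm23865 and those of Fsip1 overlap Gm29232 in GENCODE. The reads were counted on another annotation, and how reads in these overlaps were assigned was not examined.

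Akap4, the X-linked anchoring protein, was higher with AZ20 in both pairs. Its level was 2.85 ± 1.03 TPM in Ctrl and 8.77 ± 5.09 TPM in AZ20 (SD, n = 2 each). It had 108 and 73 reads in Ctrl and 538 and 203 reads in AZ20, which is 3.46-fold in the first pair and 2.44-fold in the second on the TPM scale. Its change in log2(TPM + 1) was 1.27 (standard error 0.42, 95% interval 0.28 to 2.26), and it was not called without the pairing (limma adjusted p = 0.38, unadjusted p = 0.0194). With the replicate number as a block, which takes out the difference between the assumed pairs, it was called higher (limma adjusted p = 0.00349, 95% interval 0.68 to 1.85). The block also raised the share of all tested genes called in either direction from 2.33% to 4.33%. Over the 13 alternatives the adjusted p of Akap4 ranged from 0.00349 to 0.704, and 1 of them called it.

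The Akap3 values lay the other way. It had 173 and 67 reads in Ctrl and 136 and 26 reads in AZ20, a change of -0.75 in log2(TPM + 1) (standard error 0.55, 95% interval -2.05 to 0.55), and it was not called (limma adjusted p = 0.786, and 0.269 with the block). Akap3 was lower in both pairs, at 0.546 and 0.341 of the paired Ctrl level. The Akap4 level divided by the Akap3 level was 0.658 and 1.15 under Ctrl, and 4.17 and 8.23 under AZ20. This ratio was therefore 6.34-fold higher with AZ20 in the first pair and 7.17-fold higher in the second, and the groups did not overlap. On the log2(TPM + 1) scale the difference between the genes was larger by 2.02 with AZ20. An exact two-sided permutation test over the 4 libraries gave p = 0.333, the smallest p that 2 against 2 libraries allow, so this comparison could not reach 0.05.

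**Figure D2:**
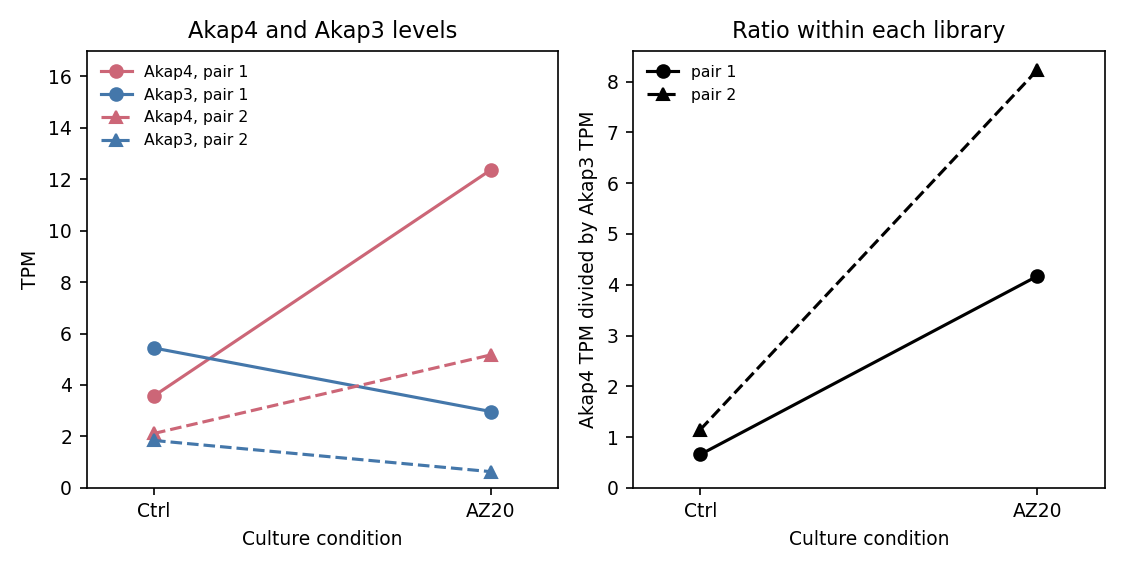
Left, TPM of Akap4 (red) and Akap3 (blue) in Ctrl and AZ20, with each line joining the libraries of the same number (solid for pair 1 and dashed for pair 2). Right, the Akap4 level divided by the Akap3 level in each library, which goes from 0.658 to 4.17 in pair 1 and from 1.15 to 8.23 in pair 2.

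Akap4 had one of the higher X-linked levels in Ctrl. Of the 341 X-linked genes tested, 11 had a higher mean level than Akap4 in Ctrl, where the median X-linked gene was at 0.0944 TPM, and 154 had a higher mean level in AZ20, where the median was 6.45 TPM. The median X-linked change in log2(TPM + 1) was 2.61, with quartiles of 1.46 and 4.01, and 277 of the X-linked genes had a larger change than Akap4. On the same scale the median autosomal change was 0.06. Of X-linked genes, 63.3% were called higher (216 genes), and 81.8% with the block, against 0.101% and 1.35% of autosomal genes. Among the 29 other X-linked genes with a mean Ctrl level within 2-fold of that of Akap4, 14 had a larger change and 13 were called higher, and their median change was 1.16. Akap4 lay below the first quartile of X-linked changes but near the middle of the X-linked genes that had a similar Ctrl level. The filter shapes this contrast in part. X-linked genes with a Ctrl mean at or below 1 TPM entered only through an AZ20 mean above 1 TPM. Their mean level therefore had to be higher with AZ20. Those near the Ctrl level of Akap4 entered through Ctrl, whatever their change. The quartiles and shares over X-linked genes are thus partly set by the filter. All these values describe the same 4 libraries and were not tested.

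**Figure D3:**
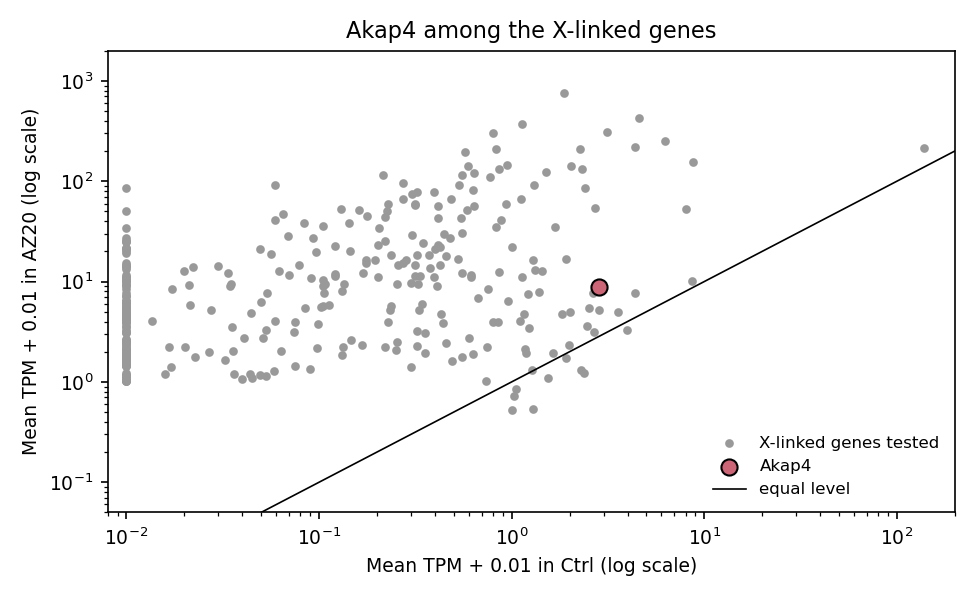
Mean TPM of the 341 tested X-linked genes in Ctrl (x axis) and AZ20 (y axis), each with 0.01 added and on log scales, with the line of equal level. Akap4 (red) lies at 2.85 TPM in Ctrl and 8.77 TPM in AZ20, above the line and to the right of most X-linked genes.

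Of the 9 members, 0 were called between AZ20 and Ctrl in the limma test without the pairing, against 2.33% of all genes tested. At an unadjusted p under 0.05 there was 1, Akap4, against 9.16% of all genes. Limma with voom weights on the recovered reads also called 0, with 2 at an unadjusted p under 0.05, against 2.16% and 8.83% of all genes. With the block, 2 members were called higher, Akap4 and Cabyr, where 4.11% of all genes were, and 0 lower. The median change of the 9 members was 0.31, against 0.07 over all genes tested.

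Cabyr, on the plus strand of chromosome 18 (12740825 to 12755146), encodes a calcium-binding protein of the fibrous sheath. It was 2.31-fold and 2.69-fold higher with AZ20 in the 2 pairs. Its change in log2(TPM + 1) was 1.17 (standard error 0.50, 95% interval -0.01 to 2.35, limma adjusted p = 0.554), and with the block it was called higher (limma adjusted p = 0.00315, 95% interval 0.63 to 1.71). Its adjusted p ranged from 0.00315 to 0.811 over the 13 alternatives. Smcp, on the minus strand of chromosome 3 (92583866 to 92589073), was 1.85-fold and 1.66-fold higher in the pairs, a change of 0.78 (95% interval -0.63 to 2.19, limma adjusted p = 0.799), below the 2-fold limit for a call on this scale, and its adjusted p with the block was 0.0559 (limma). Odf1, on the plus strand of chromosome 15 (38219203 to 38226735), was 2.90-fold higher in the first pair and 1.14-fold in the second, a change of 0.75 (95% interval -0.10 to 1.60, limma adjusted p = 0.637).

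The abundant members were measured with narrower intervals. The change of Ropn1l was -0.05 (95% interval -0.46 to 0.35), that of Odf2 was -0.03 (95% interval -0.44 to 0.38) and that of Fsip1 was -0.13 (95% interval -0.60 to 0.35). None of these intervals reached a 2-fold change in either direction. Each of these genes went opposite ways in the 2 pairs. Ropn1, on the plus strand of chromosome 16 (34649832 to 34678610), also did, at 0.98-fold and 1.63-fold, and its interval was wide (-1.02 to 1.63). Of the 9 members, 4 were higher in both pairs and 1 was lower in both, where 36.1% and 19.4% of all genes tested were. The 3 members with non-overlapping groups and higher AZ20 values, Akap4, Odf1 and Cabyr, stood against 26.4% of all genes.

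**Figure D4:**
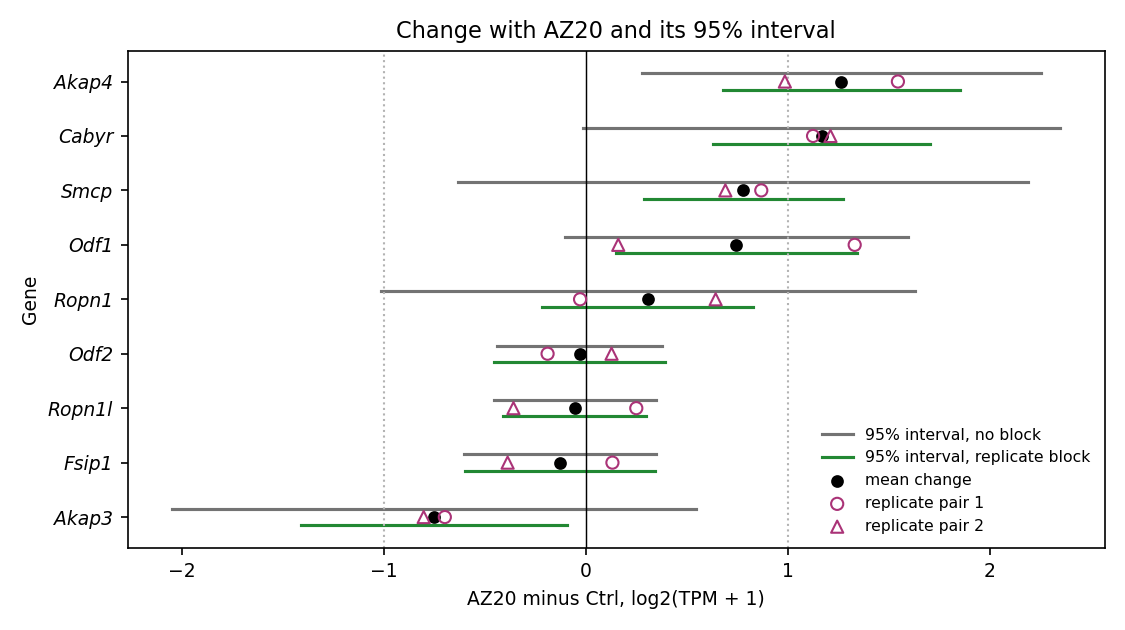
Change with AZ20 in log2(TPM + 1) for the 9 genes (black points), with the 95% interval of limma without a block (gray) and with the replicate block (green), and with the change in each pair as open symbols. Dotted lines mark a 2-fold change. The green intervals of Akap4, Cabyr, Smcp and Odf1 lie above 0 and that of Akap3 lies below 0, while the intervals of Odf2, Ropn1l and Fsip1 lie within the dotted lines.

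Spermatid markers also differed between the libraries. Their sum was higher with AZ20 in both assumed pairs, although the groups overlapped. The 8 spermatid markers, Prm1, Prm2, Prm3, Tnp1, Tnp2, Hils1, Acrv1 and Spem1, are genes of the proteins that pack sperm DNA, of the acrosome and of the late spermatid. Their summed level was 392 and 160.2 TPM in Ctrl and 834 and 275 TPM in AZ20, and all 8 were above 0 in every library. Of these markers 7 were higher with AZ20 in both pairs, where 36.1% of all genes tested were. The groups did not overlap for 1 of the 8, where 26.4% of all genes were higher with AZ20 without overlap. In both conditions 7 of the markers were higher in the first than in the second library. Tnp2, the most abundant, was at 191 and 81.0 TPM in Ctrl and at 426 and 123 TPM in AZ20. Their median change was 0.88, with 0 called without the block and 2 with it (Prm1 and Prm3). Over all genes tested 2.33% were called without the block and 4.33% with it. In bulk samples, more cells of a type and more RNA per cell cannot be told apart. The summed markers were ordered AZ20 1, Ctrl 1, AZ20 2 and Ctrl 2 from high to low, as was Smcp, whereas Akap3 was lower with AZ20 in both pairs, where the markers were higher, and Odf1 was lower in Ctrl 1 than in Ctrl 2. Among the members, Smcp, Ropn1, Cabyr, Akap4 and Akap3 were more than 1.5 times higher in the first library than in the second in both conditions. These were 5 of 9 genes, where 6.12% of all genes tested were above that ratio and 30.3% were higher at all in the first library of both conditions.

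To show how the members moved beside these markers, each level was divided by the summed marker level of its library, a step chosen after the values were seen. Smcp was nearly constant on this scale, at 9.63 and 8.65 TPM per 100 TPM of spermatid markers in Ctrl and at 8.37 and 8.36 in AZ20. Cabyr was at 2.42 and 2.22 in Ctrl and at 2.63 and 3.47 in AZ20. Akap4 was at 0.912 and 1.32 in Ctrl and at 1.48 and 1.88 in AZ20, which is 1.63-fold and 1.42-fold in the pairs. These folds of Akap4 were smaller than on the TPM scale, and its groups were separated only by 1.32 in Ctrl 2 against 1.48 in AZ20 1. The scale depends on the sum, because single markers changed by different amounts. They ranged from 0.95-fold (Acrv1) to 4.94-fold (Spem1) in the first pair. In the second pair they ranged from 1.52-fold (Tnp2) to 11.4-fold (Spem1, with 8 and 1 reads in Ctrl). Ropn1 was at 7.63 and 5.52 in Ctrl and at 3.52 and 5.23 in AZ20. Akap3 was at 1.39 and 1.15 in Ctrl and at 0.356 and 0.229 in AZ20, so that it was at 0.257 and 0.199 of the paired Ctrl value. Odf1 was at 1.01 and 2.94 in Ctrl and at 1.37 and 1.96 in AZ20, and its groups overlapped. The summed markers were higher with AZ20 in both assumed pairs. The abundant Ropn1l, Odf2 and Fsip1 were therefore at 0.412 to 0.637 of their paired Ctrl values on this scale, with overlapping groups. The groups did not overlap for 5 of the 9 members, with AZ20 higher for Akap4 and Cabyr and lower for Akap3, Ropn1 and Smcp, where 3.81% of all genes tested were higher and 14.3% were lower without overlap. The part of the spermatid markers in the changes of Akap4, Cabyr and Smcp was not tested.

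**Figure D5:**
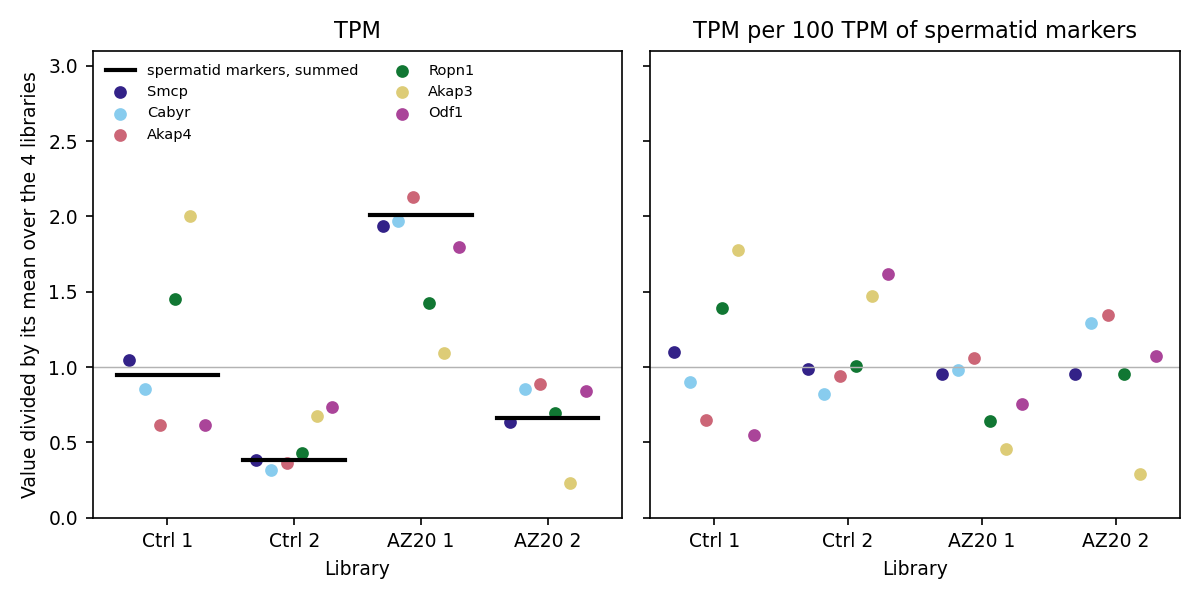
Values of 6 genes in each library, divided by the mean of that gene over the 4 libraries, as TPM (left, where black bars are the summed spermatid markers treated in the same way) and as TPM per 100 TPM of summed spermatid markers (right). On the left Smcp lies close to the black bar in every library, and on the right it stays near 1 while Akap3 is lower and Akap4 higher in AZ20 than in Ctrl.

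Other genes of the same structures, and genes of PKA subunits and other anchoring proteins, were given by 4 lists. Of 39 tested genes in these lists, 0 were called in limma in either direction, with or without the block or with voom, and 0 had an unadjusted p under 0.05 without the block. Over all genes tested, 2.33% were called without the block, 4.33% with it and 2.16% with voom, and 9.16% had such an unadjusted p. Among 5 tested genes of other fibrous sheath proteins the median change was -0.07, and the most abundant was Ldhc, the testis lactate dehydrogenase, at 6056 and 5827 TPM in Ctrl and at 6178 and 5216 TPM in AZ20. The 12 tested genes of other outer dense fiber proteins and their partners had a median change of 0.11 and a range of -0.65 to 0.92. The most abundant of them, Odf4, was at 139.6 and 152 TPM in Ctrl and at 168 and 136 TPM in AZ20. For the 12 tested genes of the mitochondrial sheath and annulus the median was -0.06 and the range -0.58 to 0.93, with Vdac3, a channel of the outer mitochondrial membrane, at 1418 and 1595 TPM in Ctrl and at 1339 and 1269 TPM in AZ20.

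The genes of PKA subunits and other anchoring proteins bear on the partners of AKAP3 and AKAP4. Of the 20 listed, 10 were tested, with a median change of 0.02 and a range of -0.50 to 0.35. Prkar1a, a regulatory subunit, was the most abundant at 88.2 and 88.05 TPM in Ctrl and at 94.8 and 87.9 TPM in AZ20. Akap14 and Akap17b, the other X-linked anchoring genes of the list, were below the limit for testing. Akap14 had 11 and 3 reads in Ctrl and 4 and 18 reads in AZ20. Akap17b had 0 and 1 reads in Ctrl and 4 and 6 reads in AZ20. No test was made for these genes.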

How the data were processed

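RNA-seq values came from 4 libraries of FACS-isolated pachytene spermatocytes, 2 in Ctrl and 2 in AZ20. Per the submitters' processing notes and the methods, the authors trimmed paired reads of 150 bp using Trimmomatic 0.39, kept unique alignments to GRCm38 from STAR 2.5.4b, and counted them with featureCounts 2.0.1 on the UCSC refGene annotation. The authors deposited TPM computed from these counts, and each column sums to 1000000. The 92 rows without a gene name were left out.

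Genes with a mean TPM above 1 in either condition were tested with limma 3.58.1 (R 4.3.3) on log2(TPM + 1) with an intensity trend, with Benjamini-Hochberg adjustment over all 10316 genes. This scale understates the change of genes with low TPM. A call needed a 2-fold change and an adjusted p under 0.05. Whole reads were recovered for all 16857 genes above 0, taking the length of a gene as shared by the libraries and as a whole number of bases. The reads of 665 genes were also raised by a whole factor to approach the exon length in GENCODE M21. A common factor can stay hidden in other genes. The lengths of the 9 members lay within 10% of exon lengths in GENCODE M21, as did 74.9% of 9511 tested genes with such a length. The methods state that a mouse was split between the conditions, and same-numbered libraries departed from their group means together (Pearson correlation of 0.23 across tested genes and 0.68 across members). The replicate block was an alternative. Figures and other values used Python 3.11.15, pandas 2.3.3 and numpy 2.4.6. The limma fit without the block and the recovery of reads were run on simulated data. The limma simulation had independent libraries without pairs, and the read simulation used the lengths recovered here.

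The members and lists were chosen with earlier results of these data known. All members were named, and from each list the most abundant gene, the X-linked genes and any gene called in limma without the block. Alternatives were 2 other pseudocounts (0.1 and 0.01), no filter or a mean TPM above 5, quantile normalization, scaling to a common autosomal total, no trend, the replicate block, voom on the recovered reads, other limits for a call, and leaving out each library. The division by spermatid markers, its share over all genes and the run shared by the Akap3 and Akap4 windows were chosen after the data were seen. Chromosomes came from GENCODE M21 and RefSeq symbols, and 137 symbols could not be placed.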

Additional observations from a re-analysis of the deposited data

How the results depend on the processing

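The number of members called higher, 0, became 2 with the replicate block, where 424 genes were called higher and 23 lower over all genes tested against 235 and 5 without it. It stayed at 0 under the other alternatives, and the count of members called lower and the counts for the 4 lists stayed at 0 under every alternative. The block has 1 residual degree of freedom for each gene and leans on the variance shared across genes. Of 116 changes of members under alternatives, 106 kept their direction and side of the threshold, 2 became calls (Akap4 and Cabyr with the block) and 8 turned sign. Ropn1l turned to 0.0074 with quantile normalization, a scaling that shifted the median change over all genes by -0.14. When each library was left out in turn, with the lone library assumed to vary like the others, changes ranged from -0.18 to 0.12 for Odf2, from -0.52 to 1.13 for Ropn1, from -0.24 to 0.13 for Ropn1l, from -0.28 to 0.022 for Fsip1 and from -0.0016 to 1.56 for Smcp. Smcp turned without AZ20 replicate 1, in a fit that sets AZ20 2 against both Ctrl libraries without the pairing. Within the assumed pairs Smcp was 1.85-fold and 1.66-fold higher with AZ20. Akap4 ranged from 0.71 to 1.82, Cabyr from 0.56 to 1.77 and Akap3 from -1.39 to -0.11. Without either AZ20 library 0 genes were called over all genes tested, with 924 and 799 at an unadjusted p under 0.05, so these fits say nothing about single calls. Without a Ctrl library 184 and 158 genes were called higher and 1 lower. Genes called lower numbered 1 with no filter and 1 with voom. The higher level of Akap4 relative to Akap3 with AZ20 was recomputed under 9 alternatives (the pseudocounts, quantile normalization, the autosomal total, the block and each library left out) and kept its direction in these, from 1.71 to 2.33 when a library was left out and up to 2.74 with a pseudocount of 0.01. With the replicate block it was 2.02 (exact p = 0.5 over 2 pairs, the smallest they allow). The cause of these shifts was not tested. Low reads limit Akap3 in AZ20 2.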
